A study of Mus musculus with 4 samples.

Results

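The genes described here are 9 that encode inflammasome and pyroptosis proteins: the sensors Nlrp6, Nlrc4 and Nlrp3, the adaptor Pycard, the caspases Casp1, Casp4 and Casp12, the pore-forming protein Gsdmd and the cytokine Il18. They were listed by symbol and found on the array through the RefSeq accession of each probe, which gave 11 probes for the 9 of 21368 named genes. The cells were Lgr5-high intestinal stem cells sorted from mice. Knockout mice had the genotype Ifnar1-/-:Lgr5-EGFP-Ires-CreERT2 and lacked a chain of the type I interferon receptor, while control mice were Lgr5-EGFP-Ires-CreERT2 and had it. Both groups carried the Lgr5 reporter knock-in, which puts a green fluorescent protein and an inducible recombinase under the Lgr5 promoter. Both had also received poly(I:C), an artificial RNA duplex that mimics virus and provokes interferon, by intraperitoneal injection at 2 mg/kg, so there was no untreated arm. The series design gives daily doses over 1 week before the sort, whereas the sample labels read 1 week after injection, and neither states the time between the last dose and the sort. Each group had 2 samples, and each sample was hybridised to its own single-colour Agilent array. The labels give no age and do not say that the samples came from separate mice, so the p-values rest on a spread between samples that may be purely technical.

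Inflammasomes are protein platforms that assemble in the cytosol when a sensor meets a microbial product or a sign of damage. The sensor recruits the adaptor encoded by Pycard, or binds a caspase directly, and caspase-1 then cuts pro-interleukin-18 into its active form and opens gasdermin D, whose freed end punches pores in the plasma membrane. In the gut epithelium this machinery is known for the expulsion of infected cells and for the release of interleukin-18. Several inflammasome genes, Casp4 among them, are known as interferon-inducible in mouse macrophages.

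The 9 genes showed no called difference between knockout and control sorts. Of the 8 genes that passed the detection filter, 0 were called in the limma fit without a slide term and 0 with the slide as a block, after Benjamini-Hochberg adjustment over all 24865 genes tested. Across all those genes, 0.00% were called lower and 0.00% higher without the block, and 0.330% were called lower and 0.0322% higher with it. At an unadjusted p under 0.05, limma without the block held 0 of the 8, against 1.72% of all genes lower and 1.04% higher. With the block it held 1 of the 8, Nlrc4, against 4.93% of all genes lower and 7.31% higher. The differences of the 8 genes lay between -0.45 and -0.05 (log2, knockout minus control) with a median of -0.21, beside a median of 0.02 over all genes tested. On slide 1 alone that median was -0.39, against -0.10 on slide 2. Without knockout 1 and without the block it was 0.07, with knockout 2, on slide 2, set against the controls of both slides. That value is not like the other 2, since 6 of the 8 genes were higher on slide 2 in both groups.

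The arrays sat on 2 slides, each with 1 array of each group, and the slide, the scan and the replicate number in the labels were the same division. Between 63.3% and 67.7% of spots were well above background per array, and the number of arrays limits the precision. Lgr5 itself was at 3.32 and 2.93 in knockout sorts, against 3.04 and 2.82 in control sorts (log2 signal minus that of the 75th percentile on its array, which is the scale of every level below). The targeted gene Ifnar1 was at -1.76 and -2.28 in knockout sorts and at -0.21 and -0.37 in control sorts. It fell 3.31-fold by its brightest probe (limma with the slide block, adjusted p = 0.0496), which was well above background on every array. Its 3 probes were 3.15-fold to 3.82-fold lower, the dimmest of them not well above background in knockout 1. The sources used here do not say where the probes lie relative to the disrupted part. Irf7, an interferon-induced transcription factor chosen here after its values were seen, was at -2.84 and -2.46 in knockout sorts against 2.07 and 1.33 in control sorts, 20.4-fold lower (limma with the slide block, adjusted p = 0.0131). Both genes missed the threshold without the block (limma, adjusted p = 0.478 for Ifnar1 and 0.224 for Irf7).

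**Figure D1:**
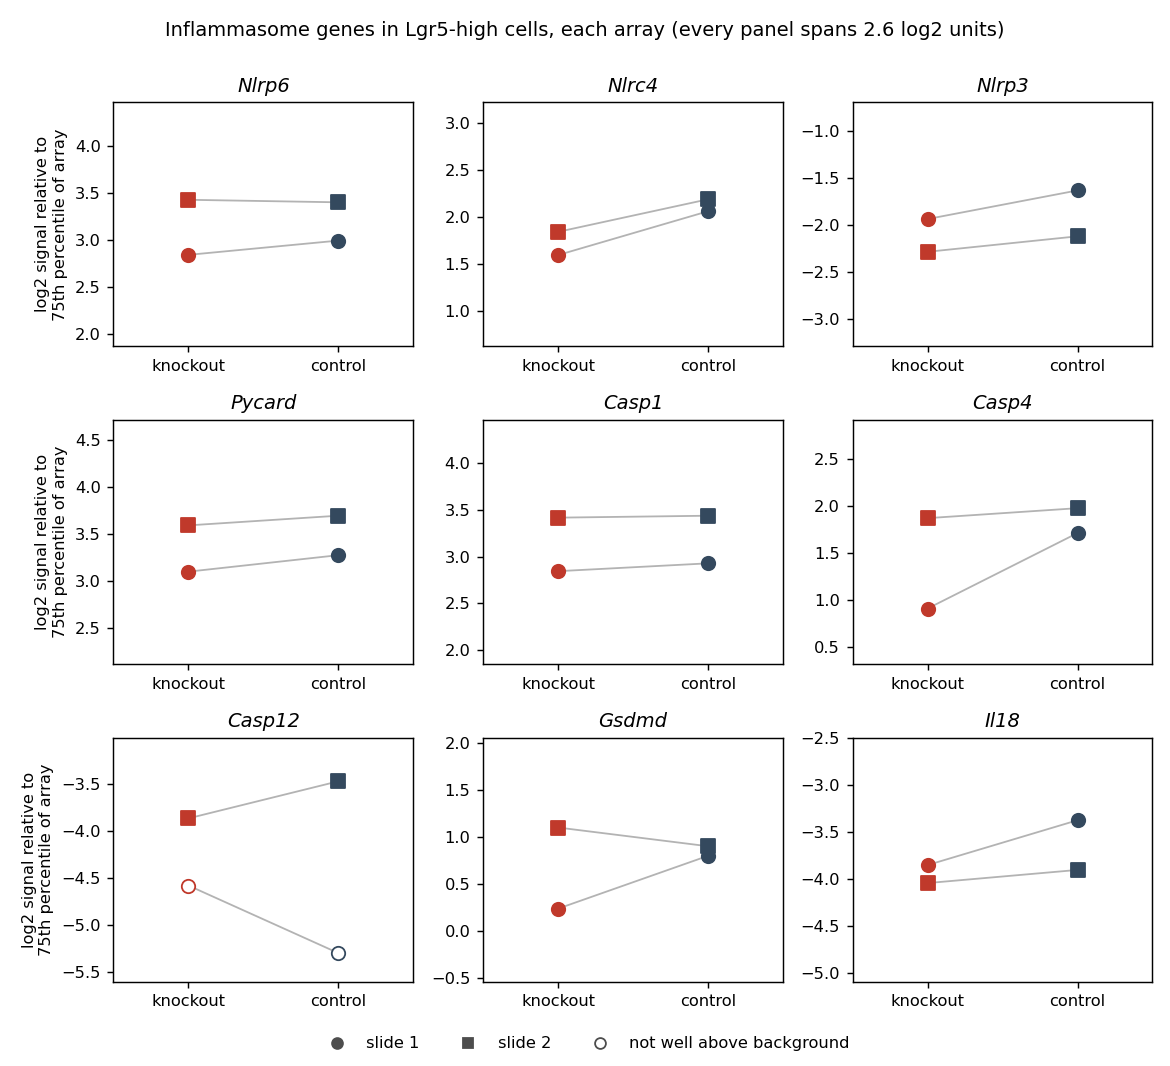
Level of each of the 9 genes on each array, on a log2 scale with the 75th percentile of the array at 0, with knockout left of control, circles for slide 1, squares for slide 2 and lines joining arrays of one slide. Open symbols mark signals not well above background, which occur for Casp12 alone, and Nlrc4 is the 1 tested gene with both knockout points below both control points.

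The upstream sequences of the 2 genes with the largest differences, Casp4 and Nlrc4, are shown because the knockout lacks an interferon receptor, and that of Casp12 is shown because it alone among the genes searched held a motif match. Each is the 250 bases before the annotated start in RefSeq (build GRCm38.p6), 5′ to 3′ on the gene's strand, at chr9:5308599-5308848 on the plus strand for Casp4, chr17:74459109-74459358 on the minus strand for Nlrc4 and chr9:5345226-5345475 on the plus strand for Casp12. Capitals mark matches to the gamma-activated site motif, to which STAT dimers bind.
Casp4: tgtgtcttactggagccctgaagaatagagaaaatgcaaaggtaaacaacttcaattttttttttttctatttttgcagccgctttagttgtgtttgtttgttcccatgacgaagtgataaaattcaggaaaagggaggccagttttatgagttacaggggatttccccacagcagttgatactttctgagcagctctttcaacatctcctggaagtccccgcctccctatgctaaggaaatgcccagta
Nlrc4: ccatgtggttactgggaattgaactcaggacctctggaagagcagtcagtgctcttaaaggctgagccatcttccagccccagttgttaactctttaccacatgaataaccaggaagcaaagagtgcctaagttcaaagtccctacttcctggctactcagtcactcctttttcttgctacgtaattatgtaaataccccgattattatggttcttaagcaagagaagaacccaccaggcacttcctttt
Casp12: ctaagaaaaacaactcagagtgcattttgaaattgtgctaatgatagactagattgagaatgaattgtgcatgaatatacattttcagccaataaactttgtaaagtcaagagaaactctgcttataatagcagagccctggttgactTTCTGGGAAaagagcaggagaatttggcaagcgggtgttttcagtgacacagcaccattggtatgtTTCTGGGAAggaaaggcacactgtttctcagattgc
The table held 10 such windows for 8 of the 9 genes, all but Gsdmd. On either strand, the interferon-stimulated response element, searched as GAAANNGAAA, matched in 0 of the 10 windows and in 2.98% of all 32851 windows of this length. The gamma-activated site, searched as TTCNNNGAA (a motif that reads the same on both strands), matched in 1 of the 10 windows and in 7.02% of all windows. The matches in the Casp12 window begin 102 and 36 bases before the start and do not overlap. A match describes the letters only, and the absence of one says nothing of binding elsewhere.

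Among the sensors, Nlrc4 had the largest difference and Nlrp6 the smallest. Nlrc4, which assembles after NAIP proteins bind bacterial flagellin or secretion-system parts, was at 1.59 and 1.84 in knockout sorts, against 2.06 and 2.19 in control sorts. Both knockout arrays lay below both control arrays, as they did for 11.5% of all genes tested, while for 14.5% both lay above. The means were 1.72 ± 0.17 in the knockout and 2.12 ± 0.09 in the control (SD, n = 2 each), a difference of -0.41 on the log2 scale, with -0.47 on slide 1 and -0.35 on slide 2. The 95% interval ran from -0.66 to -0.15 with the slide block (limma, unadjusted p = 0.00914, adjusted p = 0.276) and from -0.90 to 0.09 without it. The mean difference exceeded the SD within each group, but neither fit called the gene.

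Nlrp6, a sensor that in the mouse gut is best known in goblet cells and enterocytes, was at 2.85 and 3.43 in knockout sorts, against 2.997 and 3.41 in control sorts. The groups overlapped, and the slides differed in sign, with -0.15 on slide 1 and 0.03 on slide 2. The mean difference of -0.06 had a 95% interval of -0.30 to 0.17 with the slide block (limma, adjusted p = 0.815) and of -0.75 to 0.62 without it. With normexp background correction the difference was 0.035.

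Nlrp3, the sensor of ion fluxes and membrane damage that is best known in myeloid cells, was dim but well above background on all 4 arrays through 1 of its 2 probes. It was at -1.93 and -2.28 in knockout sorts and at -1.63 and -2.12 in control sorts, and the groups overlapped. Within slides the knockout array was the lower one each time, with gaps of -0.30 on the first slide and -0.17 on the second (limma with the slide block, adjusted p = 0.678). The second Nlrp3 probe was not well above background on any array.

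Pycard, the adaptor that joins sensors to caspase-1, was at 3.10 and 3.59 in knockout sorts, against 3.27 and 3.69 in control sorts. The knockout array was the lower one on either slide, by -0.18 on slide 1 and -0.10 on slide 2, while the groups overlapped. Its mean difference of -0.14 had a 95% interval of -0.35 to 0.07 with the slide block (limma, adjusted p = 0.539).

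The inflammatory caspases are neighbours among the protein-coding genes of chromosome 9, with Casp4 between Casp1 and Casp12 in the RefSeq annotation. Casp1, the protease at the centre of the inflammasome, was at 2.84 and 3.41 in knockout sorts, against 2.93 and 3.43 in control sorts. The paired values nearly coincided: the slide 1 arrays differed by -0.08 and the slide 2 arrays by -0.02. The mean difference of -0.05 had a 95% interval of -0.27 to 0.16 with the slide block (limma, adjusted p = 0.836). Without the block the interval was far wider, from -0.77 to 0.66, because the arrays of a group differed more from each other than the groups did.

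Casp4, the mouse gene for caspase-11, which binds bacterial lipopolysaccharide in the cytosol, had the largest mean difference of the 8, and that difference came mainly from slide 1. Its brighter probe was at 0.91 and 1.87 in knockout sorts, against 1.71 and 1.98 in control sorts. The knockout sample on slide 1 was the low one, and knockout 2 lay between the control samples. Differences were -0.80 on slide 1 and -0.11 on slide 2, with a mean of -0.45 and a 95% interval of -0.92 to 0.01 (limma with the slide block, adjusted p = 0.411). A second probe gave -0.85 on slide 1 and -0.08 on slide 2, so the probes were alike. Without knockout 1 the difference of the brighter probe was 0.026, in a fit without the block that set knockout 2 against the controls of both slides. Whether the genotype difference itself varied between slides could not be tested with 1 array per group on each.

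Casp12, a caspase linked in mice to endoplasmic reticulum stress and to restraint of caspase-1, was at the edge of detection. Its signal was well above background on the slide 2 arrays alone, at -3.87 in knockout 2 and -3.47 in control 2. On slide 1 it read -4.58 in knockout 1 and -5.30 in control 1, neither well above background. It did not pass the filter, was not tested, and no fold is given.

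**Figure D2:**
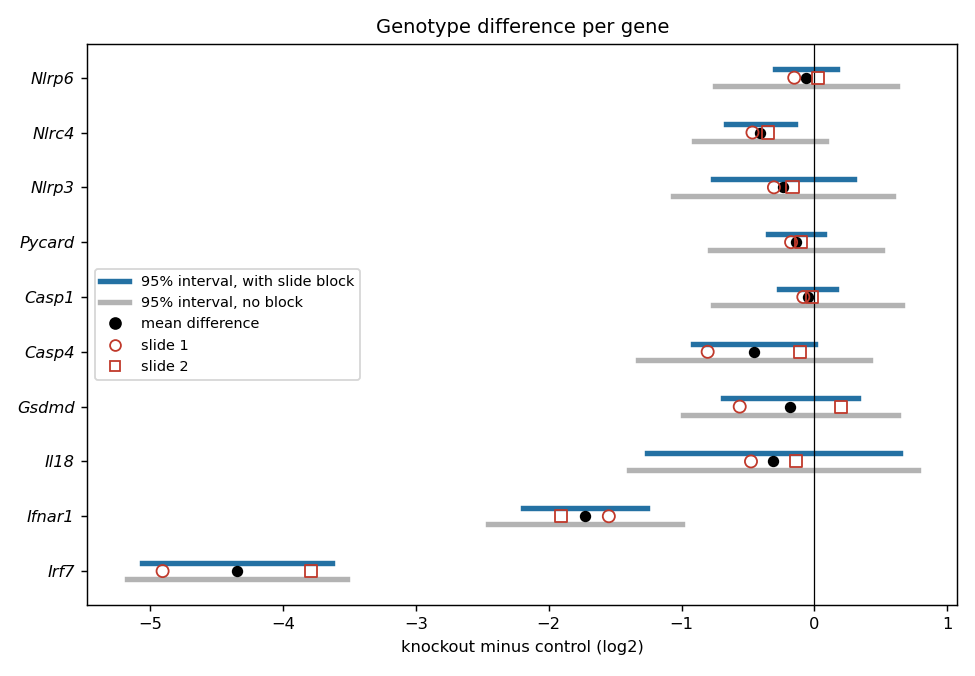
Knockout minus control per gene on the log2 scale, with the mean (black), the differences within slide 1 (open circle) and slide 2 (open square), and 95% intervals with the slide block (blue) and without it (grey). The intervals of the 8 inflammasome genes reach from -1.40 to 0.78, while those of Ifnar1 and Irf7 lie wholly below 0.

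Gsdmd, the pore-forming executioner of pyroptosis, had 10 spots of its probe on every array, which gives the error between spots of an array. Error from steps that these spots share, such as amplification and labelling of the sample, is not part of it. The coefficient of variation over the 10 spots was 7.59% in knockout 1, 4.41% in knockout 2, 4.56% in control 1 and 2.59% in control 2. Processed signals before scaling ran from 234 to 313 in knockout 1 and from 499.9 to 585 in knockout 2, against 397 to 460.5 in control 1 and 431 to 473 in control 2. The spots of knockout 1 lay below those of the other 3 arrays and the spots of knockout 2 above them. Spots of one array share a sample and are not replicates of the genotype.

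After scaling, Gsdmd was at 0.24 and 1.10 in knockout sorts, against 0.80 and 0.90 in control sorts. The control samples lay between the knockout samples, with a difference of -0.56 on slide 1 and 0.20 on slide 2. The mean difference was -0.18, with a 95% interval of -0.69 to 0.33 (limma with the slide block, adjusted p = 0.747). Knockout samples were farther apart than control samples for 6 of the 8 tested genes, a count for which the share over all genes was not taken. The samples of Casp4 were 0.96 apart in the knockout and 0.27 in the control, and those of Gsdmd 0.86 in the knockout and 0.10 in the control, while for the other 4 the knockout gap was larger by at most 0.18.

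**Figure D3:**
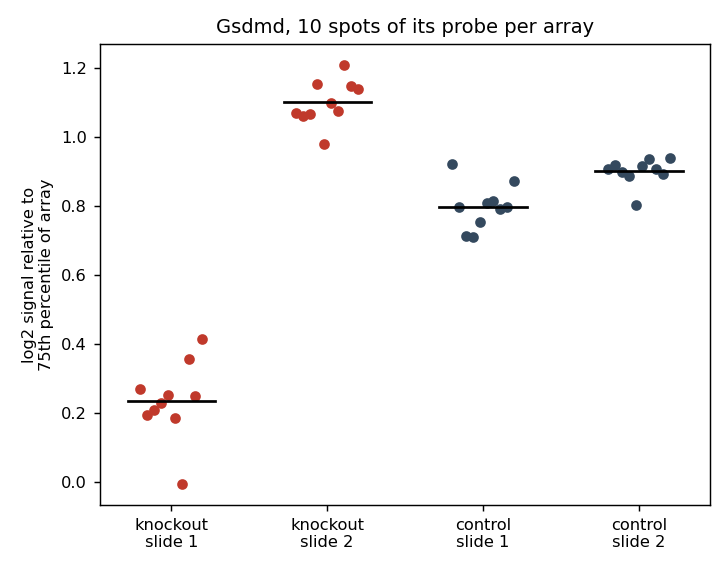
Log2 signal of Gsdmd, with the 75th percentile of the array at 0, for each of the 10 spots on each array, knockout arrays left of control arrays, with a line at the mean over spots. The spots of knockout on slide 1 form the lowest group and those of knockout on slide 2 the highest.

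Il18, the cytokine precursor cut by caspase-1, was close to the detection limit on this array. It was at -3.85 and -4.04 in knockout sorts, against -3.37 and -3.90 in control sorts, while the dimmest probe well above background on these arrays stood at -4.26 and -4.74 in knockout arrays and at -4.54 and -4.35 in control arrays. The groups overlapped, and the differences were -0.48 on slide 1 and -0.14 on slide 2. The 95% interval of the mean difference of -0.31 ran from -1.26 to 0.64 (limma with the slide block, adjusted p = 0.768), the widest of the 8 genes.

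Differences between the slides were larger than those between the genotypes for most of these genes. For 7 of the 8 tested genes the slide difference was larger than the genotype difference, Nlrc4 being the exception. The same share over all genes was not counted, so this count cannot be read as particular to these genes. Casp1 was higher on slide 2 than on slide 1 by 0.57 in the knockout and 0.51 in the control, Nlrp6 by 0.59 in the knockout and 0.41 in the control, and Pycard by 0.49 in the knockout and 0.42 in the control. These 3 passed for the slide term (limma with the slide block, adjusted p = 0.0177, 0.0250 and 0.0240), as did 11.6% of all genes higher and 6.93% lower on slide 2. The median of that difference over all genes was 0.10, and the slide calls depended on the scaling. With median scaling Casp4 passed as well (limma, adjusted p = 0.0489), with quantile normalization Pycard did not (adjusted p = 0.0598), and in the authors' deposited table only Casp1 did (adjusted p = 0.0323). Without the intensity trend in the variance none of the 8 passed for the slide, the smallest adjusted p being 0.126. In contrast, Nlrp3 and Il18 were lower on slide 2 in both groups without passing. With normexp background correction the slide difference of Il18 was 0.08 rather than -0.36, while that of Nlrp3 stayed negative at -0.30. The labels do not say whether the numbered samples differ in animals or in handling, so sample and slide cannot be told apart.

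**Figure D4:**
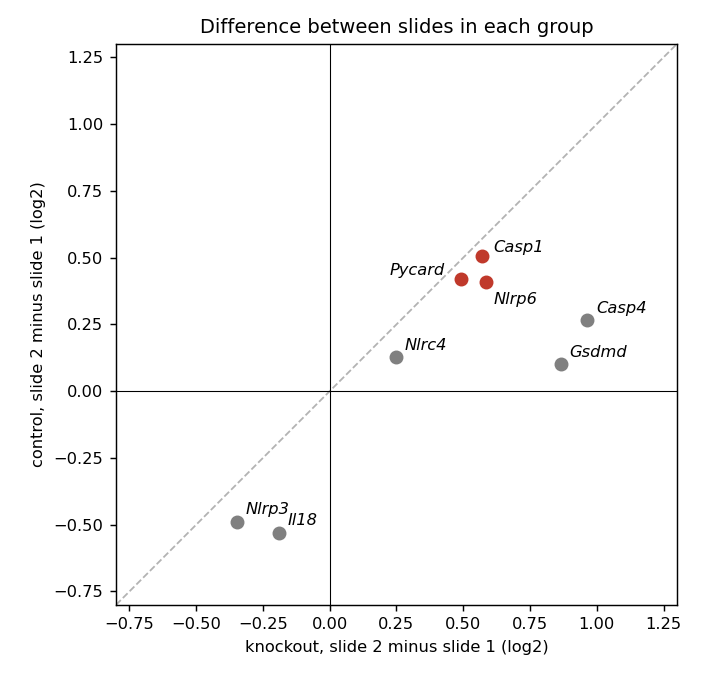
Difference between slide 2 and slide 1 (log2) in the knockout on the horizontal axis and in the control on the vertical axis, for the 8 tested genes, with equality dashed and genes called for the slide in red. Casp1, Nlrp6 and Pycard lie near the dashed line at about 0.5, while Casp4 and Gsdmd lie to its right.

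By root mean square distance between gene-centred values over the 4 arrays, the 3 named genes nearest to Casp1 were Smarcal1, Rnpepl1 and Limk2 (distances 0.01 to 0.02, log2). For Nlrc4 they were Zfp788, Vmn1r17 and Ikbke, and for Casp4 they were Glp2r, Suv39h2 and Podnl1. For Gsdmd, Cap2, Actr6 and Pla2g12b were nearest, and for Pycard, Cc2d1a, Pofut2 and Ubn2. Nlrp6 was nearest to Ms4a13, Sec63 and Rapsn, Nlrp3 to Strn, Gdf7 and Calr, and Il18 to Chic1, Nek7 and Hyal1. None of the 8 had another of them among its nearest 3, out of 14799 named genes tested. Among so many genes this says nothing of whether the 8 vary together, and Casp12 was not in the search. With 4 arrays and so many genes, such distances are small for many genes and describe these arrays only.

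Other genes of the pathway were not called either. Of 35 further sensors, gasdermins, cytokines, receptors and regulators, 34 had a named probe and 23 were tested, of which 0 rose and 0 fell in either fit (limma, smallest adjusted p = 0.333 with the slide block). At an unadjusted p under 0.05, 4 of the 23 were held with the block, a share not far from the 4.93% of all genes lower and 7.31% higher, and 0 without it. The median difference was -0.09, with 10 genes lower and 6 higher on both slides, beside 27.3% and 33.9% of all genes. On no array were Nlrp9b, Nlrp12, Gsdma, Gsdma3, Il1a, Il1r1 and Il18r1 well above background, and Nlrp1b, Nlrp10, Il18rap and P2rx7 were so on too few arrays to be tested.

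Casp8, an initiator caspase that can cut gasdermin D and interleukin-1 beta when caspase-1 is absent, was at 1.25 and 0.76 in knockout sorts, against 1.62 and 1.12 in control sorts. Its differences were -0.37 on slide 1 and -0.36 on slide 2, with overlapping groups (limma with the slide block, adjusted p = 0.333). Gsdme, the gene of gasdermin E, a pore-forming relative of gasdermin D, was at 0.45 and 0.77 in knockout sorts, against 0.25 and 0.36 in control sorts. Both knockout values lay above both control values (limma with the slide block, adjusted p = 0.43).

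Il18bp encodes a secreted protein that neutralises interleukin-18 and is known as interferon-inducible. It was at -2.89 and -4.38 in knockout sorts, against -2.19 and -2.89 in control sorts, so that both knockout values lay below both control values, although knockout 1 and control 2 were equal at the decimals shown. The mean difference of -1.10 was the largest in size among the 23 genes, with -0.70 on slide 1 and -1.49 on slide 2. The slide 2 difference rests on the value of knockout 2, which was close to the detection limit. The dimmest probe well above background on that array stood at -4.74. Its 95% interval ran from -1.95 to -0.25 with the slide block (limma, adjusted p = 0.338) and from -2.59 to 0.39 without it.

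Naip1, one of the NAIP proteins that hand bacterial ligands to Nlrc4, was at 1.49 and 1.39 in knockout sorts, against 1.28 and 0.97 in control sorts (limma with the slide block, adjusted p = 0.387). A dimmer Naip1 probe differed by 0.00, so the probes did not tell the same story. The Naip genes are close copies, and a probe may read more than 1 of them. Txnip, a redox regulator reported to bind NLRP3, differed by -0.21 (adjusted p = 0.453 in the same fit). The interleukin-1 beta gene Il1b was at -3.81 and -3.33 in knockout sorts, against -3.89 and -3.41 in control sorts, a difference of 0.08. Aim2, the sensor of cytosolic DNA, was at -4.24 and -1.74 in knockout sorts, against -3.17 and -2.91 in control sorts. Its slide differences of -1.07 and 1.18 had opposite signs, and 1 of its 2 knockout signals was well above background.

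**Figure D5:**
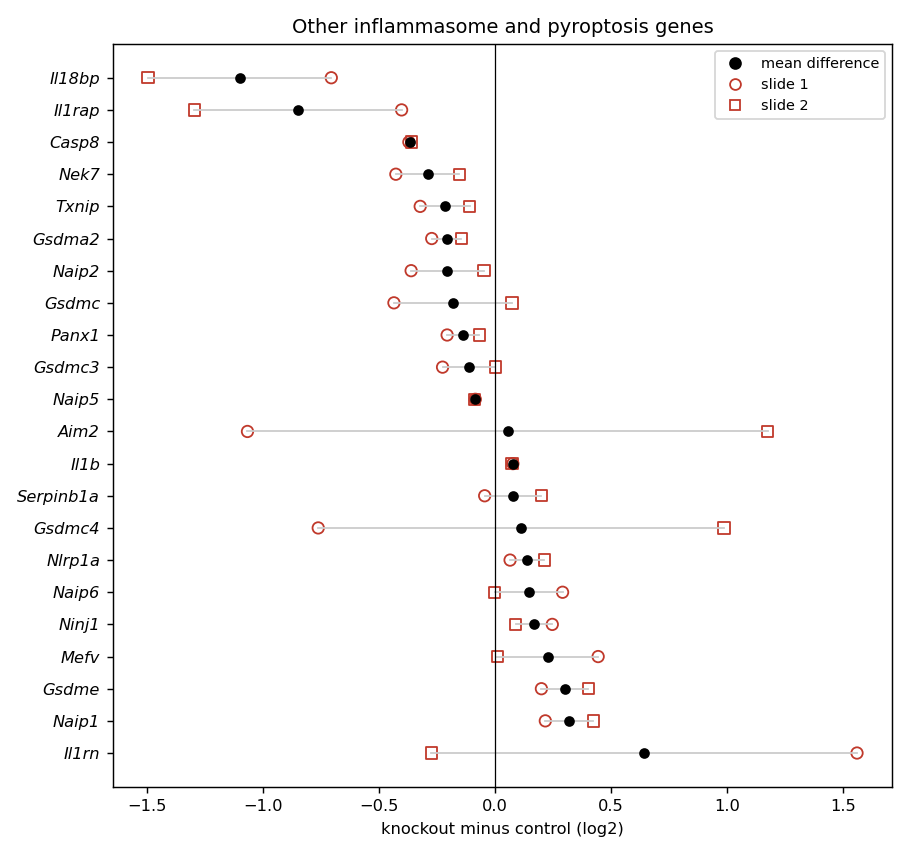
Knockout minus control (log2) for 22 of the 23 tested genes of the wider pathway list, ordered from lowest to highest mean difference, with slide 1 as open circles and slide 2 as open squares. Casp8 and Il1b have slide values that nearly coincide, while those of Aim2, Gsdmc4 and Il1rn lie on either side of 0.

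Markers of other cell types differed between the sorts, and in such bulk samples fewer cells of a type and less RNA per cell cannot be told apart. The signals of 10 Paneth cell markers, Lyz1, Ang4 and Clps among them, summed to 121 and 194 times the 75th percentile in knockout sorts, against 468 and 600.2 in control sorts. Of these 10 markers 10 were lower on both slides and 8 were called lower (limma with the slide block). Without the block limma called 0 of the 10, although all 10 had an unadjusted p under 0.05, and with the block but no intensity trend it called 0 genes on the whole array (smallest adjusted p = 0.444). The 10 goblet cell markers, such as Muc2, Spink4 and Tff3, summed to 120.2 and 171 in knockout sorts, against 170.2 and 169 in control sorts, with 5 of 10 lower on both slides and 1 called lower with the block. That gene was Ccl6, named after its values were seen (limma, adjusted p = 0.0446 with the slide block and 0.392 without it). Knockout 1, which was low for Casp4 and Gsdmd, had the lowest goblet sum, and also the lowest Paneth and enteroendocrine sums. Its stem cell sum was the highest, and its enterocyte sum lay above those of both control sorts. It also had the lowest share of spots well above background (63.3%). Whether these go together was not tested. Fcgbp, named after its values were seen, was the largest part of each goblet sum. It was at 6.37 and 6.57 in knockout sorts, against 6.47 and 6.39 in control sorts. Of 9 tested enteroendocrine markers, from a list that opens with Chga, Chgb and Neurod1, 7 were lower and 2 higher on both slides. They summed to 5.199 and 7.96 in knockout sorts, against 8.79 and 13.1 in control sorts, without a call (limma with the slide block, smallest adjusted p = 0.0561). Chgb alone made up most of each sum, at 1.57 and 2.25 in knockout sorts, against 2.42 and 3.02 in control sorts (log2). Neurod1 was among the 2 that were higher. Of 10 enterocyte markers, Alpi, Fabp1 and Fabp2 among them, 7 were higher and 3 lower on both slides, without a call (smallest adjusted p = 0.123 in the same fit). They summed to 67.1 and 71.2 in knockout sorts, against 47.5 and 55.9 in control sorts. Fabp2 alone made up most of each sum, at 5.93 and 5.99 in knockout sorts, against 5.35 and 5.59 in control sorts (log2). The 10 stem cell markers, Lgr5, Ascl2 and Smoc2 among them, summed to 93.0 and 87.3 in knockout sorts, against 83.6 and 84.6 in control sorts. Of these, 7 were higher and 1 lower on both slides, beside 33.9% and 27.3% of all genes. None was called (limma with the slide block, smallest adjusted p = 0.118). The part of these cell types in the values of the inflammasome genes was not tested.

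Immune cells are a known source of Nlrp3, Casp1 and Il1b transcripts, so their markers were examined as well. Of 10 macrophage and dendritic cell markers, Itgax, Cx3cr1 and C1qc were not well above background on any array, and 3 of the 7 tested were lower and 1 higher on both slides. The summed level of those 7 was 234 and 348 in knockout sorts, against 239 and 358 in control sorts, but Itgam alone made up 86.2% to 93.5% of it on each array. Without Itgam the sum was 29.4 and 22.6 in knockout sorts, against 33.0 and 29.0 in control sorts, and the single markers differed by between -2.64 for Lyz2 and 0.50 for C1qa. The 1 called lower, named after its values were seen, was Lyz2 (limma, adjusted p = 0.00828 with the slide block and 0.293 without it), a close relative of the Paneth cell gene Lyz1. Of 6 neutrophil markers with a probe, S100a8, S100a9, Cxcr2, Mpo and Retnlg were not well above background on any array. The sixth, Csf3r, was bright on every array, at 7.73 and 7.70 in knockout sorts, against 7.79 and 7.80 in control sorts (limma with the slide block, adjusted p = 0.64). Of 7 tested lymphocyte markers, 6, Ptprc among them, were higher on both slides, beside 33.9% of all genes. Cd3e differed in sign between slides. The 7 summed to 3.59 and 5.86 in knockout sorts, against 2.76 and 4.02 in control sorts, without a call. Gzma, named after its values were seen, had the largest difference, 1.06 (limma with the slide block, adjusted p = 0.132). For Ptprc the difference was 0.07. The part of these immune cells in the values above was not tested.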

How the data were processed

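Total RNA of sorted cells was amplified, labelled with 1 dye and hybridised to 1 array per sample, per the labels' protocols. Intensity per spot, linear and already background-corrected by the scanner software, was taken from the deposited array files. That software was Agilent Feature Extraction, of version 12.0.3.1 in the headers of those files and 11.5.1.1 in the submitters' processing notes. The authors' deposited series table is that intensity times 1 constant per array, from 5.60 to 6.68, with column medians of 239 and 223 in the knockout and 249 and 231 in the control. It is on a linear scale without centring of genes, and the target of its scaling is unknown. Detection flags were used as deposited, per the file headers.

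Control spots and 111 to 172 outlier spots per array were left out, log2 signal was set relative to the array's 75th percentile, and spots of a probe were averaged. Of 55681 probes, 35422 were well above background on both arrays of a group. Accessions named 28331 probes through the RefSeq gene table (GRCm38.p6). Each gene was read from its brightest probe. Genes were fitted with limma 3.58.1 in R 4.3.3 with an intensity trend, without a slide term and with the slide as a block, and the scripts were tested on simulated data. Same-numbered samples shared a slide per the file headers, and their deviations correlated across genes (r = 0.563, genes not being independent replicates). The block leaves 1 residual degree of freedom.

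The genes and lists were chosen with earlier results of these data known. The text names the 9 genes, Ifnar1, the 6 genes of the wider list with the smallest p with the block (1 is not reported here), Casp8, Il1b, Il18bp and Aim2, up to 3 markers per list in list order, and the 3 nearest genes to each of the 9 detected on all arrays. Marker lists for other cell types not described in the text (tuft, B, fibroblast and endothelial cells) gave 0 calls with the block. Alternatives covered the block, scaling, background correction, the authors' table, filters, the probe rule, flags, the variance trend and leaving out each array.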

Additional observations from a re-analysis of the deposited data

How the results depend on the processing

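No alternative called any of the 9 genes: over 169 values of single genes under 21 other settings, the smallest adjusted p was 0.066 (limma), for Nlrc4 with the slide block and no filter on dim probes. Many settings, the block among them, alter only the spread and leave a difference as it was. Of the 74 distinct values that did differ from those reported, 64 kept the direction, and Nlrc4 and Il18 were lower in the knockout under each setting run. Leaving out each replicate in turn moved the difference across 0 for Casp1 (-0.34 to 0.23), Casp4 (-0.94 to 0.026), Gsdmd (-0.61 to 0.25), Pycard (-0.39 to 0.11), Nlrp6 (-0.36 to 0.23) and Nlrp3 (-0.48 to 0.0095). It was positive without knockout replicate 1 for the first 5 of these and without control replicate 1 for Nlrp3. Without control replicate 2 it was positive for Casp1 (0.20), Pycard (0.07) and Nlrp6 (0.14). These fits had no slide block, so the lone array of a group was set against arrays of both slides. Their differences thus carry part of the difference between slides. Compared within slides 1 and 2, the knockout was lower for Casp1 (-0.08 and -0.02), Casp4 (-0.80 and -0.11), Pycard (-0.18 and -0.10) and Nlrp3 (-0.30 and -0.17). Gsdmd and Nlrp6 differed in sign between slides. Nlrp6 was also positive, at 0.035, with normexp background correction, with the block and without it. The cause was not tested. The median over the 8 genes ran from -0.37 to 0.07 when 1 array was left out, again without the block. The wider list gave 0 calls under each setting.

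The count of called genes over the whole array did change. It was 0 without the block and 90 with the replicate block (82 lower, 8 higher), 9 to 91 when 1 array was left out without the block (the lone array of a group then being assumed to vary like the other group's pair), and in the settings added after seeing the data 145 with the block and quantile scaling, 266 with median scaling, 314 with normexp, 136 with the mean of all probes, 766 with no filter on dim probes and 0 without the intensity trend (smallest adjusted p = 0.444). The pairing by slide changed no call among the 9 genes or the wider list. Normexp ran on the median signal, since the mean signal is not used here. Il18, near the detection limit, had the widest interval of the 8 tested genes in the fits with the intensity trend. Its samples were not the farthest apart, with an SD of 0.14 in the knockout and 0.37 in the control. For Casp4 the SD was 0.68 in the knockout and 0.19 in the control. Casp12 was not tested.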
